A study of Mus musculus with 4 samples.

Results

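The genes described here are 8 matricellular genes, found as the rows of the deposited tables named Tnc, Tnxb, Thbs1, Thbs2, Thbs3, Thbs4, Postn and Spp1, out of 16305 genes in all. Thbs4 had no row in the table of tumour 1, so 7 of the genes were measured there and 8 in the other 3 tumours. In the fits below Thbs4 entered as 0 in tumour 1, and leaving that tumour out changed no call of Thbs4. The data came from single cells that were sorted as cancer-associated fibroblasts (CAFs) from 4 untreated APTKA tumours growing orthotopically in the colon of female C57BL6J mice. All cells share that strain, sex and lack of treatment, and the labels give 1 group, so every comparison was made between groups of cells within the same tumours. The sort gate and the number of mice behind a tumour were not given in the sources used here, and each tumour was read on 1 multiwell plate with the SORT-seq and CEL-Seq2 protocols, which count 1 molecular tag per captured transcript. The spread between these tumours is the error behind each comparison, apart from the fits named in the section on processing.

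Matricellular proteins are secreted into the extracellular matrix, where they change how cells attach and signal rather than bear load. Tenascin-C (Tnc), thrombospondin 1 (Thbs1), periostin (Postn) and osteopontin (Spp1) are scarce in most resting adult connective tissue and are known from wounds, fibrosis and tumour stroma, while tenascin-X (Tnxb) belongs to resting connective tissue and binds collagen fibrils. They act largely through integrins, CD44, CD47 and syndecans on neighbouring cells, and fibroblasts are a main source of several of them.

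The genes lie on 6 chromosomes of the mm10 (GRCm38) assembly, by the GENCODE annotation. Thbs1 spans chr2:118111876-118127133 on the plus strand, Postn chr3:54361109-54391037 on the plus strand, Thbs3 chr3:89215180-89226837 on the plus strand, Tnc chr4:63959785-64047015 on the minus strand, and Spp1 chr5:104435118-104441050 on the plus strand. Thbs4 spans chr13:92751590-92794818 on the minus strand, Thbs2 chr17:14665500-14694235 on the minus strand and Tnxb chr17:34670535-34719815 on the plus strand. Annotated genes on the opposite strand overlap Tnc (8030451A03Rik, over 67162 bases) and Thbs3 (Mtx1, over 11658 bases), and a predicted gene on the same strand, Gm42793, overlaps 1252 bases of Spp1. Whether the counting used strand is not given in the sources used here, so reads of Thbs3 and Mtx1, or of Tnc and its antisense partner, cannot be told apart.

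The bases just before the start of 3 of the genes are shown because these genes carried the main contrast among fibroblasts, Tnc and Spp1 on one side and Tnxb on the other. They are the 250 bases upstream of a RefSeq start on GRCm38.p6, read 5′ to 3′ on the strand of the gene, with capitals where 1 of 4 motifs was found on either strand.
Tnc, chr4:64047016-64047265, minus strand: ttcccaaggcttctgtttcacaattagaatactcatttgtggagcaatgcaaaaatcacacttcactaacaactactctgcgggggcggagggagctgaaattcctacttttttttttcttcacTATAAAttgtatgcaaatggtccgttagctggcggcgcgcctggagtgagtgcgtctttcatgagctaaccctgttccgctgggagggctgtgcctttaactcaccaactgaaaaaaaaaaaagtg
Spp1, chr5:104434861-104435110, plus strand: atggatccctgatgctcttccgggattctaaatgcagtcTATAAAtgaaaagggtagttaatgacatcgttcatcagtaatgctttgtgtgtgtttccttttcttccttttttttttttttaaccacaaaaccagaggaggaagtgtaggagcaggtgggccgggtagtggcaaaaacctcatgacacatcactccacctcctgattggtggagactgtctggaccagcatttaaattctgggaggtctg
Tnxb, chr17:34670285-34670534, plus strand: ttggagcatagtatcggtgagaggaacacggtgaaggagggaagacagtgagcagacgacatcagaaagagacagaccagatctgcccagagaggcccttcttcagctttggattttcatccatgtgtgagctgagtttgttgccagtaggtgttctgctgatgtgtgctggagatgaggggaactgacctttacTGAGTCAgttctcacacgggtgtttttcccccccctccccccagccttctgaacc
The motifs searched on both strands were the TATA box, spelled TATAAA; the AP-1 element, whose letters are TGANTCA; the element bound by TEAD factors, which is GGAATG; and the CArG box by its name. The capitals mark TATAAA beginning 126 bases before the Tnc start and 211 bases before this Spp1 start, and TGANTCA beginning 55 bases before the Tnxb start, which reads as a match on both strands. Of 32851 windows of this length in the RefSeq table, 12.4% held TATAAA, 6.75% TGANTCA, 12.6% GGAATG and 1.47% a CArG box. The table held 10 windows for 7 of the 8 genes, all but Thbs1. TATAAA also stood 26 bases before 1 of the 2 Postn starts and in the Thbs2 window, and overlapping GGAATG matches stood in the Thbs4 window. A match is a description of letters and not a binding site.

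Of 1536 wells, 740 held at least 1000 transcripts with at most 30% mitochondrial transcripts and were kept, 43, 250, 243 and 204 of them in tumours 1 to 4. The plates held 612734, 3165550, 2805112 and 2727191 transcripts outside the spike-ins. Tumour 1 stood apart: spike-ins made up 44.0% of its counts, against 5.54 to 8.59% on the other plates, the median mitochondrial share of its kept wells was 14.4%, against 5.25 to 6.14%, and its plate came from another sequencing run by the file names. Each well was assigned by markers that include none of the 8 genes, which gave 588 fibroblast-gated cells (28, 207, 195 and 158), 57 smooth-muscle-gated, 32 pericyte-gated, 27 Cajal-gated (interstitial cells of Cajal, the pacemaker cells of the gut) and 26 red-cell-gated wells. Among the fibroblast-gated cells 99.7% held a transcript of Col1a1 and 82.5% of Pdgfra, while Ptprc, Pecam1 and Epcam were found in 1, 4 and 3 of them, and these cells made up 79.5% of the kept wells. The gates have no sharp edge, since 55, 48 and 124 kept cells fell 1 marker short of the smooth muscle, pericyte and Cajal gates.

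All 8 genes were read in fibroblast-gated cells, in very different shares of them. Levels are given as transcripts per 10000 transcripts of the summed cells of a tumour, for tumours 1 to 4 in that order. Postn, which binds collagen and integrins, stood at 18.9, 11.2, 15.1 and 15.1, and 74.8% of cells held at least 1 transcript. Tnc, which loosens adhesion to fibronectin, stood at 1.01, 8.05, 3.48 and 5.16, with a transcript in 294 of the 588 cells. Thbs1, which binds CD47 and can activate latent TGF-beta, stood at 0.555, 10.9, 3.92 and 6.50, with 62.4% of cells. These levels of Tnc and Thbs1 were lowest in tumour 1 and highest in tumour 2, a spread of several-fold, whereas Postn was highest in tumour 1.

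Thbs2, a relative of Thbs1 that clears matrix proteases, followed the same order, at 1.16, 7.74, 4.32 and 6.55 transcripts per 10000. Spp1, a ligand of CD44 and of integrins, was read at 0 in all 28 fibroblast-gated cells of tumour 1, where a count of 0 allows up to 0.151 per 10000, and at 4.68, 3.09 and 1.94 in tumours 2 to 4. Thbs4, a pentameric thrombospondin known from tendon and muscle, had no row in tumour 1 and stood at 1.28, 0.767 and 1.69 in the others. The remaining pair varied least between tumours. Tnxb stood at 3.13, 1.98, 2.44 and 2.55 transcripts per 10000 (mean 2.53 ± 0.473, SD, n = 4) and Thbs3, another pentameric thrombospondin, at 1.46, 1.15, 1.68 and 1.53 (1.46 ± 0.222, SD, n = 4).

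A transcript in a well is not always the cell's own, so the same shares were read in the 26 red-cell-gated wells, whose cell type should lack these genes. In that order of wells, red-cell-gated and then fibroblast-gated, a transcript was found in 30.8% against 74.8% for Postn, 30.8% against 61.7% for Thbs2, 19.2% against 294 of 588 cells for Tnc, 15.4% against 62.4% for Thbs1, 7.69% against 58.7% for Tnxb, 7.69% against 18.2% for Spp1, 3.85% against 53.1% for Thbs3 and 0 against 11.7% for Thbs4. The median depth was 3129 transcripts in the red-cell-gated wells and 8910 in the fibroblast-gated ones, and 92.3% of the red-cell-gated wells held Col1a1. With each cell thinned to 3000 UMIs (unique molecular identifiers) only 8 red-cell-gated wells remained, and 25.0% of them (2 wells) held Spp1, against 9.26% of the 486 thinned fibroblasts. For Tnc and Thbs2 the thinned share of red-cell-gated wells was also 25.0%, against 37.7 and 49.0% of fibroblasts. The other 5 genes were found in 0 to 12.5% of them, against 7.82 to 67.5%. So few wells cannot show whether the share of cells with Spp1 lay above that background, and Spp1 is read here by its level.

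**Figure D1:**
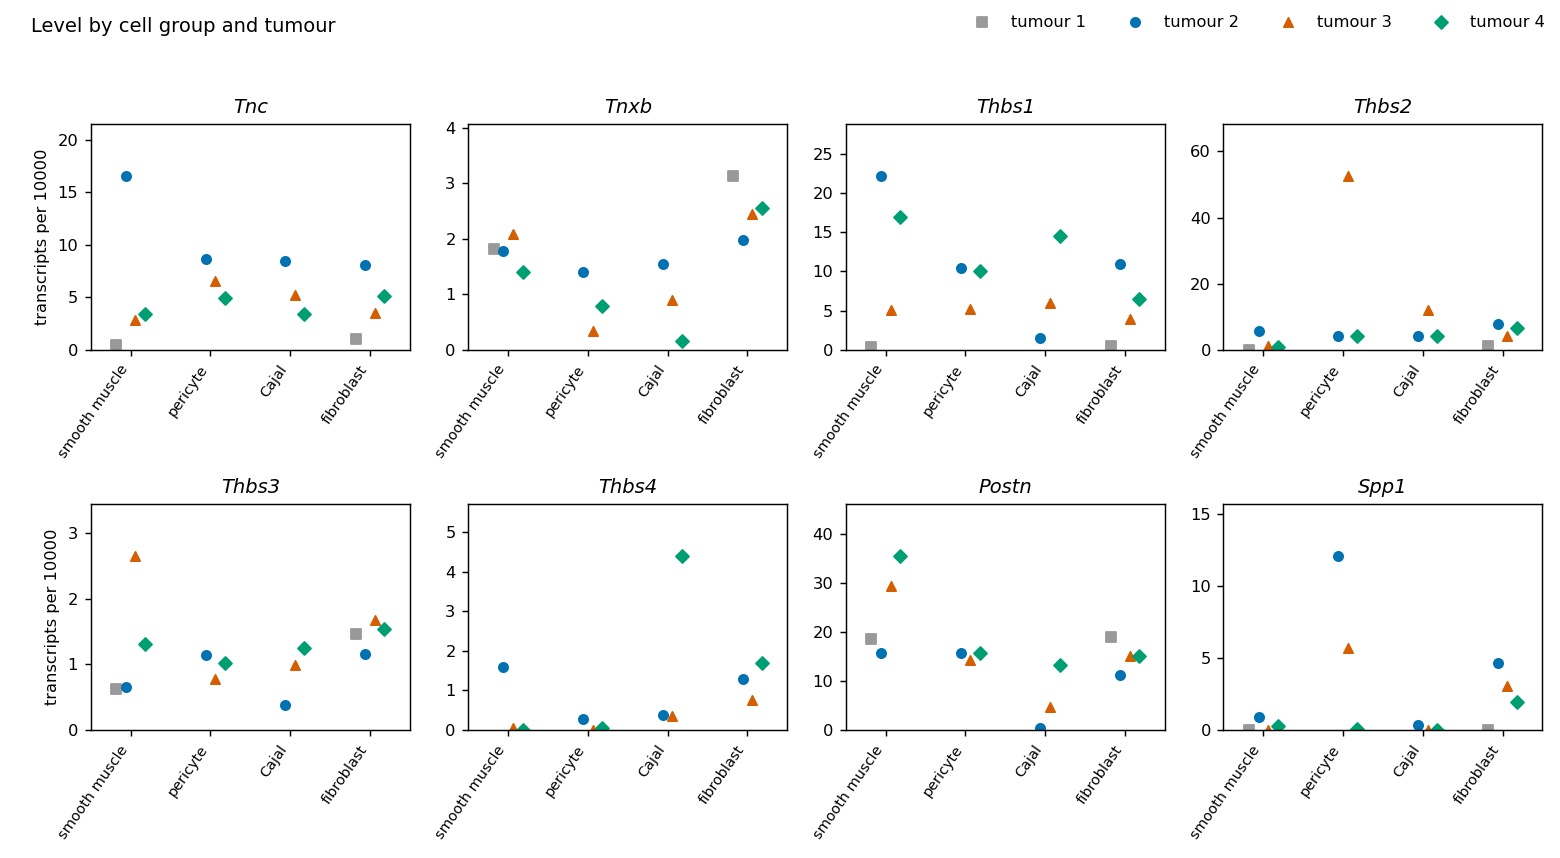
Transcripts per 10000 of each gene (vertical axis) in smooth-muscle-gated, pericyte-gated, Cajal-gated and fibroblast-gated cells (horizontal axis), 1 point per tumour with at least 5 cells of the group; tumour 1 has no Thbs4 row. Postn is lowest in Cajal-gated cells, at 0.386 to 13.4, Tnxb has its highest mean in fibroblast-gated cells, and the pericyte Thbs2 point at 52.6 comes almost wholly from 1 well.

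Few differences between the other gated cells and fibroblasts passed the test, which could miss moderate ones. In sums simulated from these data with known changes in smooth-muscle-gated cells, it recovered 29.7% of 2-fold and 98.8% of 4-fold changes. The wells gated to other cell types also held transcripts of genes on the fibroblast list. Col1a1, a collagen gene of that list, was found in 96.5% of smooth-muscle-gated, 100% of pericyte-gated and 100% of Cajal-gated wells. In fibroblast-gated wells the share was 99.7%. Pdgfra was found in 38.6, 37.5 and 66.7% of the same 3 groups, against 82.5% of fibroblast-gated wells. In tumours 2 to 4 the Col1a1 level was 110, 84.5 and 74.3 per 10000 in smooth-muscle-gated, 154, 127 and 137 in pericyte-gated and 23.9, 44.7 and 27.8 in Cajal-gated cells, against 125, 95.7 and 118 in fibroblast-gated cells. Their own markers were found too, Myh11 in 94.7% of smooth-muscle-gated, Notch3 in 93.8% of pericyte-gated and Kit in 74.1% of Cajal-gated wells. Other markers set the gates apart less. Des, of the smooth muscle list, was found in 49.1% of smooth-muscle-gated but 75.0% of pericyte-gated wells. Ano1, of the Cajal list, was found in 66.7% of Cajal-gated and 65.6% of pericyte-gated wells. Rgs5, of the pericyte list, was found in 71.9% of pericyte-gated and 44.4% of Cajal-gated wells. Whether the Col1a1 and Pdgfra in these wells were the gated cells' own or came from fibroblasts cannot be told apart. The same holds for transcripts of the 8 genes, and the part of fibroblast RNA in these differences was not tested. In the plot of levels by cell group, Tnxb averaged 1.78 ± 0.284 transcripts per 10000 in smooth-muscle-gated cells (SD, n = 4 tumours), 0.846 ± 0.536 in pericyte-gated cells, 0.864 ± 0.693 in Cajal-gated cells (n = 3 each) and 2.53 ± 0.473 in fibroblast-gated cells (n = 4). Tnxb fell in Cajal-gated cells relative to fibroblast-gated cells, with a log2 fold change of -1.99 ± 0.50 (SE, edgeR quasi-likelihood test with Benjamini-Hochberg adjustment over 4488 genes, adjusted p = 0.0397). The call was lost without tumour 1, 2, 3 or 4, with edgeR adjusted p of 0.0629, 0.0767, 0.0645 and 0.353, and also with library size scaling (0.0824), at least 2000 transcripts per well (0.0963) and a gate at 60% of the markers (0.194). The difference was -1.48 ± 0.40 in pericyte-gated cells (edgeR adjusted p = 0.0573) and -0.62 ± 0.34 in smooth-muscle-gated cells (edgeR adjusted p = 0.453). By mean level, fibroblast-gated cells stood highest and smooth-muscle-gated cells next. Cajal-gated and pericyte-gated cells were not ordered, since their means were close and the fitted fall was larger in Cajal-gated cells. The tumour values of neighbouring groups overlapped.

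Spp1 was nearly absent from Cajal-gated cells, with 1 UMI in 27 cells, a level 0.0156 times that of fibroblasts of tumours 2 to 4 (exact 95% interval 0.000395 to 0.0871, counting error only, edgeR adjusted p = 0.0314). Its edgeR adjusted p was 0.0390 without tumour 1 and 0.132, 0.0887 and 0.0969 without tumours 2, 3 and 4, which ended the call, as did DESeq2 (0.0628), at least 2000 transcripts per well (0.147) and a gate at 40% (0.0639). In smooth-muscle-gated cells it stood at 0, 0.908, 0 and 0.28 transcripts per 10000, against 0, 4.68, 3.09 and 1.94 in fibroblast-gated cells. That fall had a log2 fold change of -3.67 ± 0.92 (SE, edgeR adjusted p = 0.0417). In this fit Spp1 passed the filter on low counts mainly through the groups in which it was high. Fibroblast-gated cells held 1092, 647 and 422 UMIs of it in tumours 2 to 4, and pericyte-gated cells 387, 66 and 2. Cajal-gated cells held 1, 0 and 0, and smooth-muscle-gated cells 28, 0 and 3. A single well gave 31.2, 73.5 and 60.6% of the fibroblast Spp1 of these tumours. Leaving out tumour 1, 3 or 4 ended the call of Spp1 in smooth-muscle-gated cells, with edgeR adjusted p of 0.0629, 0.156 and 0.0687, as did leaving out tumour 2 (0.113), DESeq2 (0.391), at least 2000 transcripts (0.0695), at most 15% mitochondrial transcripts (0.0563) and a gate at 40% (0.119). Pericyte-gated cells held 12.1, 5.70 and 0.0924 per 10000 in tumours 2 to 4, of which 1 well gave 94.0, 100 and 100% of the transcripts of the tumour, and their difference from fibroblasts was 0.10 ± 0.78 (SE, edgeR adjusted p = 0.993). With a gate at 60% it was -4.28 (edgeR adjusted p = 0.00748) and with the highest well of each sum set to the mean of the others it was -3.11 (0.0247), so the sign and the call both turn on single wells and the gate. The calls therefore came to 2 of 8 genes in Cajal-gated cells, 0 in pericyte-gated cells (2 at an unadjusted p under 0.05, Tnxb and Thbs4, both called by edgeR without tumour 2 with adjusted p of 0.0426 and 0.0154, and with the highest well replaced, 0.00307 and 0.0452) and 1 in smooth-muscle-gated cells, where 4.06, 3.63 and 3.39% of all 4488 genes tested were called. By direction, 1.74% were higher and 2.32% lower in Cajal-gated cells, 1.60% and 2.03% in pericyte-gated cells, and 2.27% and 1.11% in smooth-muscle-gated cells.

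Postn, abundant in fibroblasts, was found in the other cell types too. Smooth-muscle-gated cells held 18.6, 15.7, 29.5 and 35.5 transcripts per 10000, pericyte-gated cells 15.7, 14.3 and 15.7 in tumours 2 to 4, and Cajal-gated cells 0.386, 4.66 and 13.4 in the same 3 tumours, against 18.9, 11.2, 15.1 and 15.1 in fibroblast-gated cells of tumours 1 to 4. The difference from fibroblasts was 0.55 ± 0.42 in smooth-muscle-gated cells (SE, edgeR adjusted p = 0.648) and -1.76 ± 0.53 in Cajal-gated cells (edgeR adjusted p = 0.0759), so neither was called. The Cajal difference was called by DESeq2, at -1.75 (adjusted p = 0.0267), and by edgeR without the filter on low counts, at -1.93 (7e-06), with a gate at 60%, at -3.18 (0.00508), and with the highest well replaced, at -3.19 (0.00481). Thbs1 reached 22.1 and 16.9 per 10000 in the smooth-muscle-gated cells of tumours 2 and 4, with 54.5 and 53.7% of it in 1 well each. Thbs2 reached 52.6 in the pericyte-gated cells of tumour 3, where 1 of 5 wells held 97.1% of it. Thbs4 was not called in smooth-muscle-gated cells, but it was without tumour 2, at -5.18 (edgeR adjusted p = 0.0202), with a gate at 60%, at -5.05 (0.00392), with the highest well replaced, at -4.02 (0.0350), and without the filter, at -1.33 (0.0486). Tnc and Thbs3 were not called in any of the 3 cell types, with log2 fold changes between -1.07 and 0.16.

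Among the other matricellular genes on the list used here, 15 of 29 were tested, and none rose in the 3 cell types. In Cajal-gated cells 4 fell relative to fibroblasts, Fbln2 (log2 fold change -4.57), Ctgf (-3.91), Fstl1 (-2.12) and Sparc (-1.50), with a median over the list of -0.80 and -0.11 over all genes. In pericyte-gated cells Fbln1 (-2.36) and Fbln5 (-2.28) fell, and in smooth-muscle-gated cells Fbln1 (-2.12). Of 18 receptor genes tested, Itga8 (3.26) and Itga9 (1.76), integrin chains that can bind osteopontin and tenascin-C, rose in smooth-muscle-gated cells. Anxa2, a receptor for tenascin-C, fell in Cajal-gated cells (-2.58), and Sdc4 (-1.26) and Lrp1 (-1.09) fell in pericyte-gated cells.

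Within fibroblasts, the genes split by how contractile the cells were. Fibroblast-gated cells were ranked within each tumour by 8 contractile markers (Acta2, Tagln, Myl9 and others, the genes of stress fibres), and the top 196 cells were set against the bottom 197, about 33% of each tumour at either end. Tnc, Thbs1, Postn and Spp1 rose in contractile-high cells and Tnxb fell. These are 5 of 8 genes called, where 8.47% of 6813 genes were called (3.79% higher and 4.68% lower).

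**Figure D2:**
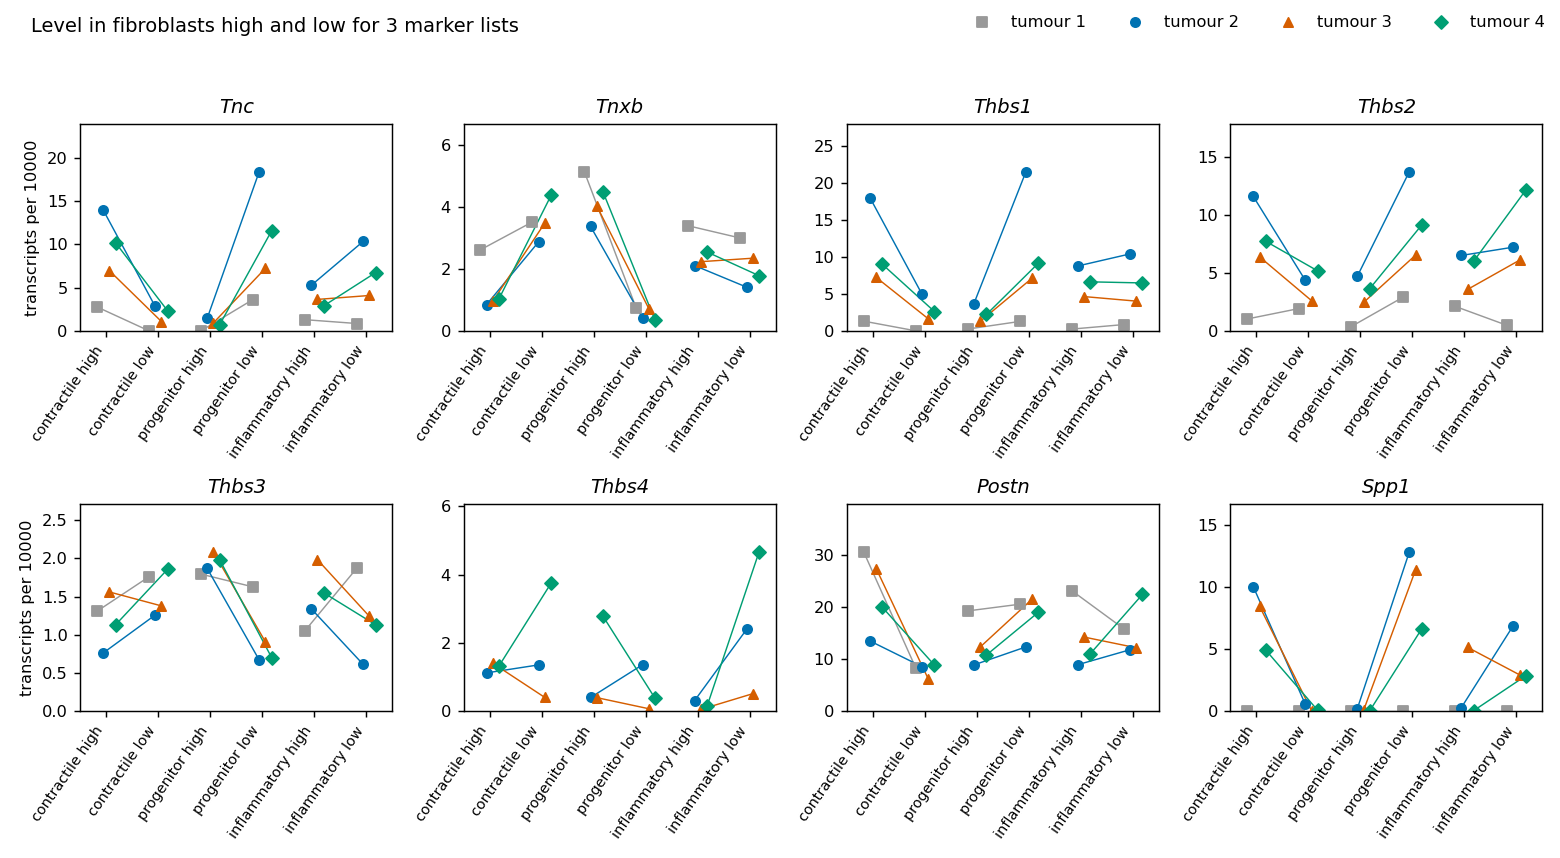
Transcripts per 10000 of each gene (vertical axis) in fibroblast-gated cells high and low for the contractile, progenitor and inflammatory marker lists (horizontal axis), with a line joining the 2 groups of a tumour; Thbs4 has no row and Spp1 is at 0 in tumour 1. For the contractile and the progenitor lists the lines of Tnc and of Tnxb slope in opposite directions in all 4 tumours.

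Tnc stood at 2.76, 14.0, 6.95 and 10.2 transcripts per 10000 in contractile-high cells of tumours 1 to 4, against 0, 2.82, 1.07 and 2.30 in contractile-low cells. It was higher in 4 of 4 tumours, and the groups overlapped only in that the 2.76 of tumour 1 lay just under the 2.82 of tumour 2. The log2 fold change was 2.35 ± 0.27 (SE, edgeR adjusted p = 8.46e-05). Tnxb moved the other way, at 2.62, 0.849, 0.961 and 1.04 in contractile-high cells, against 3.52, 2.87, 3.49 and 4.38 in contractile-low cells. The 2 groups did not overlap, and the log2 fold change was -1.80 ± 0.25 (SE, edgeR adjusted p = 3.66e-04). The 2 tenascin genes thus stood at opposite ends of the same ranking.

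Postn stood at 30.6, 13.5, 27.5 and 19.97 transcripts per 10000 in contractile-high cells, against 8.33, 8.56, 6.22 and 8.86 in contractile-low cells, also without overlap. Its log2 fold change was 1.32 ± 0.23 (SE, edgeR adjusted p = 0.00202). Thbs1 stood at 1.31, 18.01, 7.23 and 8.99 in contractile-high cells, against 0, 4.97, 1.63 and 2.61 in contractile-low cells. It was higher in 4 of 4 tumours, by 1.86 ± 0.24 on the log2 scale (SE, edgeR adjusted p = 2.14e-04). Thbs2 was higher in 3 of 4 tumours, at 1.02, 11.6, 6.37 and 7.70 in contractile-high cells against 1.92, 4.35, 2.60 and 5.15 in contractile-low cells, and did not pass (0.75 ± 0.26, SE, edgeR adjusted p = 0.101). Thbs2 was called under 6 alternatives, with edgeR adjusted p of 0.00804 to 0.0206, among them without tumour 1, at 0.95 (0.00838). Thbs3 (-0.55 ± 0.23, SE, edgeR adjusted p = 0.191; called with cells ranked by summed marker level, at -0.96 with 0.0115) and Thbs4 (-0.31 ± 0.44, SE, edgeR adjusted p = 0.783) were not called.

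Spp1 had the largest fold change of the 8 genes, but it passed the filter on low counts mainly through the group in which it was high. Contractile-high cells held 1000, 602 and 416 Spp1 UMIs in tumours 2 to 4, against 37, 2 and 3 in contractile-low cells. Spp1 stood at 0, 10.01, 8.44 and 4.91 transcripts per 10000 in contractile-high cells, against 0, 0.549, 0.0363 and 0.0485 in contractile-low cells. The log2 fold change was 5.32 ± 0.48 (SE, edgeR adjusted p = 1.79e-05), carried by the 3 tumours in which it was read. A single well gave 34.0, 78.7 and 61.4% of the contractile-high Spp1 of tumours 2 to 4. With the highest well of every sum set to the mean of the other wells, the log2 fold change was 5.47 (edgeR adjusted p = 1.16e-05), and with the 11 cycling cells left out it was 4.16 (edgeR adjusted p = 1.19e-05). Without tumour 2 the gene fell under the filter on low counts and could not be tested.

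**Figure D3:**
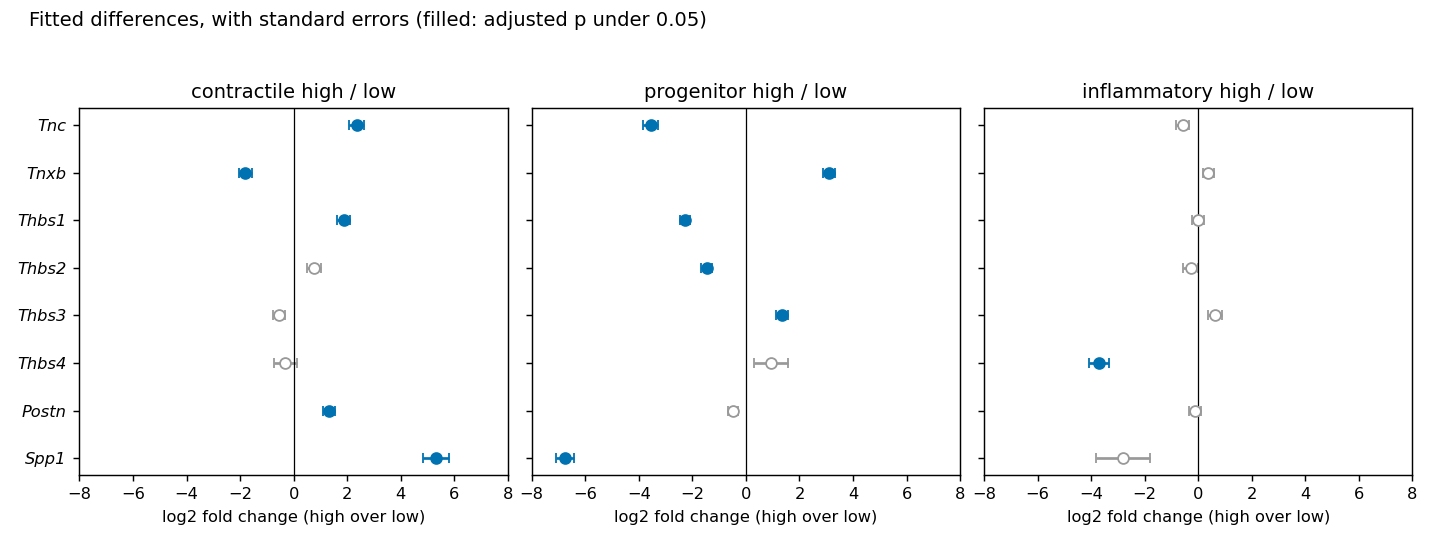
Log2 fold change of each gene (horizontal axis, high over low group, bars 1 standard error) for the contractile, progenitor and inflammatory lists, filled where the edgeR adjusted p is under 0.05. Tnc, Thbs1 and Spp1 lie right of 0 for the contractile list and left of 0 for the progenitor list, Tnxb lies the other way round, and Thbs4 alone is filled for the inflammatory list.

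The second ranking used 8 markers of progenitor-like or universal fibroblasts (Pi16, Dpp4, Cd34, Ly6a and others), and 6 of 8 genes were called where 11.9% of 7186 genes were (6.90% higher and 5.02% lower). Tnxb and Thbs3 rose in progenitor-high cells, and Tnc, Thbs1, Thbs2 and Spp1 fell. The 2 rankings are not independent: 118 of the 196 contractile-high cells were progenitor-low and 16 were progenitor-high. Cd34 and Clec3b, 2 markers of this list, were also among the genes whose levels followed Tnxb most closely from cell to cell.

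Tnxb stood at 5.15, 3.38, 4.03 and 4.49 transcripts per 10000 in progenitor-high cells of tumours 1 to 4, against 0.724, 0.414, 0.718 and 0.342 in progenitor-low cells. The groups were far apart, and the log2 fold change was 3.10 ± 0.24 (SE, edgeR adjusted p = 4.07e-07). Thbs3 followed it, at 1.80, 1.87, 2.09 and 1.98 in progenitor-high cells against 1.63, 0.670, 0.906 and 0.701 in progenitor-low cells, with 1.35 ± 0.22 (SE, edgeR adjusted p = 5.81e-04). The groups did not overlap, though tumour 1 showed little difference. Among the progenitor-high cells 86.2% held Tnxb, against 27.4% of the progenitor-low cells, and 65.2% against 18.8% after thinning to 3000 UMIs.

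Tnc stood at 0, 1.45, 0.919 and 0.714 transcripts per 10000 in progenitor-high cells, against 3.62, 18.4, 7.23 and 11.6 in progenitor-low cells, with no overlap. It fell by 3.56 ± 0.27 on the log2 scale (SE, edgeR adjusted p = 3.28e-07). Thbs1 fell by 2.28 ± 0.20 (SE, edgeR adjusted p = 1.35e-06), at 0.239, 3.69, 1.28 and 2.21 in progenitor-high cells against 1.27, 21.5, 7.13 and 9.16 in progenitor-low cells. Thbs2, not called for the contractile list, fell here by 1.46 ± 0.21 (SE, edgeR adjusted p = 1.48e-04), at 0.359, 4.70, 2.44 and 3.64 in progenitor-high cells against 2.90, 13.7, 6.52 and 9.12 in progenitor-low cells. With cells ranked by summed marker level the Thbs2 change was -0.59 (edgeR adjusted p = 0.150), which ended the call. Each of the 3 genes was lower in progenitor-high cells in 4 of 4 tumours. Spp1 stood at 0, 0.193, 0.0546 and 0.0315 in progenitor-high cells against 0, 12.8, 11.4 and 6.63 in progenitor-low cells, and fell by 6.76 ± 0.34 (SE, edgeR adjusted p = 1.83e-08). With the highest well of each sum set to the mean of the others it fell by 6.34, and without tumour 2 it could not be tested. Here too Spp1 passed the filter on low counts mainly through the group in which it was high. Progenitor-low cells held 1027, 634 and 417 UMIs of it in tumours 2 to 4, against 18, 5 and 3 in progenitor-high cells.

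Postn did not pass for the progenitor list. It stood at 19.3, 8.89, 12.3 and 10.8 transcripts per 10000 in progenitor-high cells, against 20.6, 12.4, 21.6 and 19.04 in progenitor-low cells. It was lower in 4 of 4 tumours, by -0.49 ± 0.18 on the log2 scale (SE, edgeR adjusted p = 0.0971), and whether it passed turned on the setting. It was called without tumour 1, at -0.62 (edgeR adjusted p = 0.0100), with cells ranked by summed marker level, at -0.83 (0.0112), with library size scaling, at -0.57 (0.0483), and with at most 15% mitochondrial transcripts, at -0.58 (0.00922). Thbs4 stood at 0.398, 0.394 and 2.78 in progenitor-high cells of tumours 2 to 4, against 1.36, 0.0684 and 0.374 in progenitor-low cells. It moved in different directions between tumours and was not called (0.93 ± 0.64, SE, edgeR adjusted p = 0.457), while without tumour 2 it was, at 2.85 (edgeR adjusted p = 2.63e-04).

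Other matricellular genes and receptors changed along the same rankings, in both directions. For the contractile list 2 of 15 other matricellular genes rose, the CCN-family gene Wisp1 (log2 fold change 2.59) and Tgfbi (2.26), a relative of Postn, and 3 fell, among them Nov (-1.82) and Sparcl1 (-0.90). Their median was 0.01, and 0.00 over all genes. Of 19 receptor genes 4 rose, Itgb3 (1.48), Cd44 (1.40), Sdc1 (1.17) and Itgav (1.001), and 3 fell. Itgav and Itgb3 form the integrin that binds osteopontin, periostin and thrombospondin, and CD44 binds osteopontin. For the progenitor list 5 of 15 other matricellular genes rose, Nov (2.26) among them, and Smoc1 (-3.21), Wisp1 (-2.43) and Tgfbi (-2.43) fell. Of the 19 receptors 5 rose, such as Sdc2 (1.06), and 4 fell, such as Itgb3 (-1.89), Sdc1 (-1.28) and Cd44 (-1.04).

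Other measures moved with these rankings, and their part in the results was not tested except where a value is given. The median depth was 10135 transcripts in contractile-high and 6867 in contractile-low cells, and 12028 in progenitor-high and 6486 in progenitor-low cells. With the markers scored on cells thinned to 3000 UMIs 5 and 6 of the 8 genes were called again, with log2 fold changes of 2.24 (contractile) and -3.51 (progenitor) for Tnc and of -1.83 and 2.82 for Tnxb. Of 10 genes of the dissociation stress response, 2 (Atf3 and Dnajb1) were lower in contractile-high cells and the same 2 were higher in progenitor-high cells. In tumours 2 to 4 these 10 genes summed to 60.1, 108 and 90.1 per 10000 in contractile-high cells, against 115, 149 and 126 in contractile-low cells. They summed to 108, 141 and 125 in progenitor-high against 53.3, 95.8 and 73.4 in progenitor-low cells. Tumour 1 went the other way, at 24.3 against 4.64 (contractile) and 6.70 against 28.6 (progenitor). The 5 red cell genes with a row, of 8 listed, summed to 1.81 to 10.8 per 10000 in contractile-high cells, against 7.04 to 181 in contractile-low cells, and to 1.96 to 5.86 in progenitor-high cells, against 7.42 to 178 in progenitor-low cells. Without the wells in which red cell genes exceeded 10% of transcripts, 5 and 6 of the 8 genes were called again. The cycling list summed to 7.05 per 10000 in contractile-high cells of tumour 4, against 0.323 in contractile-low cells, while all 8 smooth muscle markers summed to 1.94 to 8.87 in contractile-high and 0.711 to 2.40 in contractile-low cells. The pericyte list summed to 0.872, 2.68, 3.03 and 2.58 in contractile-high cells of tumours 1 to 4, against 3.04, 1.44, 1.29 and 1.20 in contractile-low cells. It summed to 2.99, 1.31, 0.819 and 0.840 in progenitor-high cells, against 1.99, 3.01, 3.56 and 2.73 in progenitor-low cells.

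A further ranking used 9 inflammatory markers (Il6, Lif, Saa3, Cxcl1 and others), the programme named in the title of the series, and here 1 of 8 genes was called, downwards, where 2.30% of 5918 genes were (1.55% higher and 0.743% lower). Thbs4 stood at 0.306, 0.0481 and 0.144 transcripts per 10000 in inflammatory-high cells of tumours 2 to 4, against 2.39, 0.510 and 4.66 in inflammatory-low cells. The groups did not overlap, and it fell by 3.71 ± 0.37 on the log2 scale (SE, edgeR adjusted p = 5.23e-04), and the fall was of the same size without tumour 1, which has no row for it (log2 fold change -3.71, edgeR adjusted p = 2.59e-04). Thbs4 passed the filter on low counts mainly through the inflammatory-low cells. These held 125, 23 and 210 UMIs of it in tumours 2 to 4, against 31, 5 and 14 in inflammatory-high cells. The fall rested on few wells. A single well held 31.2, 69.6 and 92.1% of the Thbs4 of the inflammatory-low cells in tumours 2 to 4. As counted, 11.7% of inflammatory-high against 10.7% of inflammatory-low cells held a transcript, but the inflammatory-high cells were read more deeply. Among cells thinned to equal depth the shares were 4.47% of inflammatory-high against 10.1% of inflammatory-low cells. This difference in shares was not tested. With the highest well of each sum set to the mean of the others, or without tumour 2, Thbs4 fell under the filter on low counts and could not be tested.

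The remaining 7 genes did not pass for the inflammatory list. Thbs3 (0.61 ± 0.26, SE, edgeR adjusted p = 0.340) and Tnxb (0.38 ± 0.20, SE, edgeR adjusted p = 0.470) had positive log2 fold changes, and Tnc (-0.58 ± 0.24, SE, edgeR adjusted p = 0.335), Thbs2 (-0.29), Postn (-0.12) and Thbs1 (-0.02) negative ones. Spp1 stood at 0.276, 5.13 and 0.0410 transcripts per 10000 in inflammatory-high cells of tumours 2 to 4, against 6.89, 2.92 and 2.84 in inflammatory-low cells. The high value of tumour 3 came to 93.4% from 1 well, and the log2 fold change of -2.80 ± 1.01 (SE) was not called (edgeR adjusted p = 0.239). Without tumour 3 it was -4.98 (edgeR adjusted p = 1.17e-06) and with cycling cells left out it was -4.05 (edgeR adjusted p = 5.33e-04), so the call turns on few cells. Thbs3 was called without tumour 1, at 0.85 (edgeR adjusted p = 0.0309). Depth differed again, with medians of 12415 transcripts in inflammatory-high and 5169 in inflammatory-low cells, and red cell genes summed to 1.76 to 8.79 per 10000 in inflammatory-high against 8.16 to 189 in inflammatory-low cells. Of the other lists, Wisp2 rose (2.62) as 1 of 15 other matricellular genes and Itgb3 fell (-1.36) as 1 of 18 receptors.

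Much of the Spp1 lay in wells scored as cycling fibroblasts. Cycling cells, with at least 4 of 12 cell cycle markers, numbered 11 of the 588, and 1050 of the 2161 Spp1 UMIs of all fibroblast-gated cells lay in them. Spp1 stood at 28.8, 102 and 17.4 transcripts per 10000 in cycling cells of tumours 2 to 4 (4, 1 and 6 cells), against 3.68, 0.839 and 0.533 in non-cycling cells. In each tumour 1 cycling cell held 93.4, 100 and 81.0% of that amount. Tnc stood at 10.3, 31.2 and 20.3 in cycling cells, against 7.95, 2.85 and 3.79 in non-cycling cells. Tnxb was down to 3 UMIs in the 11 cells, a level 0.0375 times that of non-cycling cells (exact 95% interval 0.00773 to 0.110, counting error only). The median depth was 32382 transcripts in cycling and 8692 in non-cycling cells, and no well was removed as a doublet; the part of depth and of shared wells in these levels was not tested. Only tumour 4 had 5 or more such cells, so no test was made at 4 markers. With at least 3 of the 12 markers, tumours 2 and 4 had enough cells (6 and 8 cycling, 201 and 150 non-cycling), and 4 of the 8 genes were called where 5.40% of 8519 genes were (2.28% higher and 3.12% lower). There Spp1 was higher by 3.59 ± 0.30 (SE, edgeR adjusted p = 2.73e-29) and Tnc by 1.52 ± 0.27 (2.26e-06), and Tnxb was lower, at -3.78 ± 0.47 (2.52e-13), and Thbs4, at -3.03 ± 0.47 (2.58e-08). The other 4 genes lay between -0.41 and 0.55 and were not called. That fit has 4 sums of 2 tumours and so 1 residual degree of freedom. Its p-values rest almost wholly on a spread estimated over all genes together. They do not measure how each gene varied between the 2 tumours. Tnxb and Thbs4 could pass the filter on low counts through the non-cycling cells, in which they were high. At 4 markers, cycling cells of tumours 2 and 4 held 3 and 0 Tnxb UMIs, against 469 and 567 in non-cycling cells. For Thbs4 they held 0 and 6, against 305 and 364, and 1 well gave 25.4 and 53.5% of the non-cycling Thbs4.

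**Figure D4:**
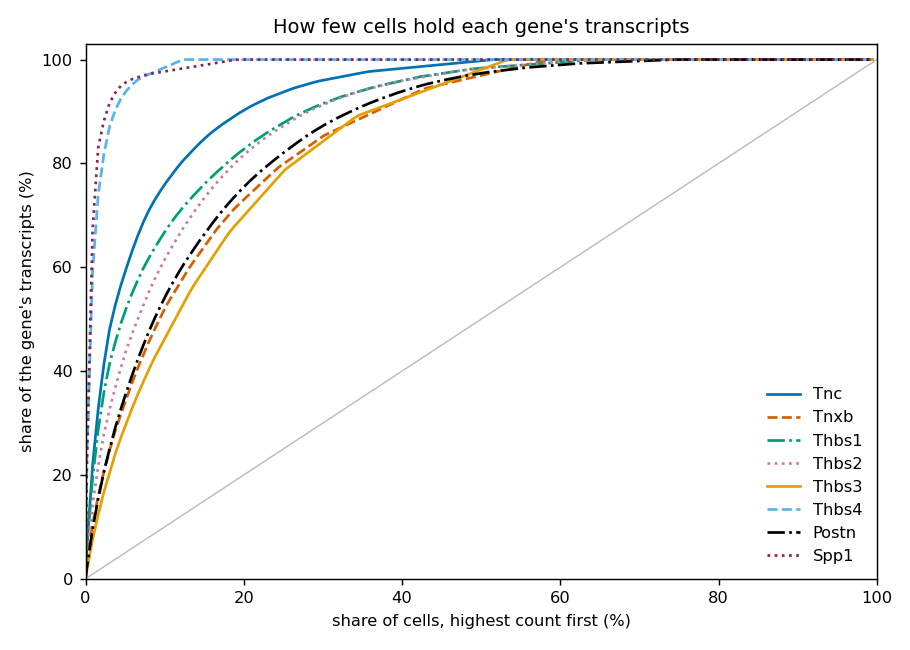
Share of each gene's transcripts (vertical axis, %) held by the share of cells with the highest counts (horizontal axis, %), over 560 fibroblast-gated cells of tumours 2 to 4; the grey diagonal is an even spread. Spp1 and Thbs4 rise almost straight up, with 97.7 and 98.5% of their transcripts in 56 cells, and Thbs3 and Tnxb rise most slowly.

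The genes differed in how evenly cells shared them, which the curves of cumulative transcripts show for the 560 fibroblast-gated cells of tumours 2 to 4. The 56 cells highest for a gene held 98.5% of Thbs4, 97.7% of Spp1, 75.9% of Tnc, 66.8% of Thbs1, 61.5% of Thbs2, 54.1% of Postn, 52.0% of Tnxb and 46.2% of Thbs3. For Spp1 and for Thbs4, 4 cells held more than 50% of all transcripts, and the highest single cell held 22.4% of Spp1 (498 transcripts) and 23.2% of Thbs4 (198 transcripts). For Thbs3 it took 64 cells. Of the 56 cells highest for Tnc, 41 were progenitor-low and 3 progenitor-high, and of the 56 highest for Tnxb, 3 were progenitor-low and 38 progenitor-high. The top Postn cells were split evenly by that ranking, 17 and 17.

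Postn followed 2 other sets of fibroblast markers. Among the 76 fibroblasts with at least 3 of 7 telocyte markers (Foxl1, Bmp7, Wnt5a and others, of subepithelial fibroblasts next to the crypt), Postn stood at 25.5, 20.4, 34.7 and 30.4 transcripts per 10000, against 16.9, 10.1, 9.21 and 13.4 in the other fibroblasts. Among the 170 fibroblasts with at least 3 of 6 lamina propria markers (Adamdec1, Ccl11, Fgf10 and others) it stood at 26.3, 14.1, 23.2 and 23.5, against 6.72, 9.79, 8.65 and 10.3 in the remaining fibroblasts. In both splits the groups did not overlap. Tnxb was lower in the telocyte-marker cells in 4 of 4 tumours, at 0.859, 1.07, 1.10 and 1.21 there against 3.82, 2.08, 2.85 and 2.71 in the other fibroblasts. These 2 splits are descriptions without a test. The median depth was 11917 transcripts in telocyte-marker cells against 7998 in the others, and 12402 in lamina propria-marker cells against 7279. Wells in which red cell genes exceeded 10% of transcripts numbered 0 in either marker group and 16 in the other fibroblasts of each split. The part of depth and of red cell transcripts in these levels was not tested.

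**Figure D5:**
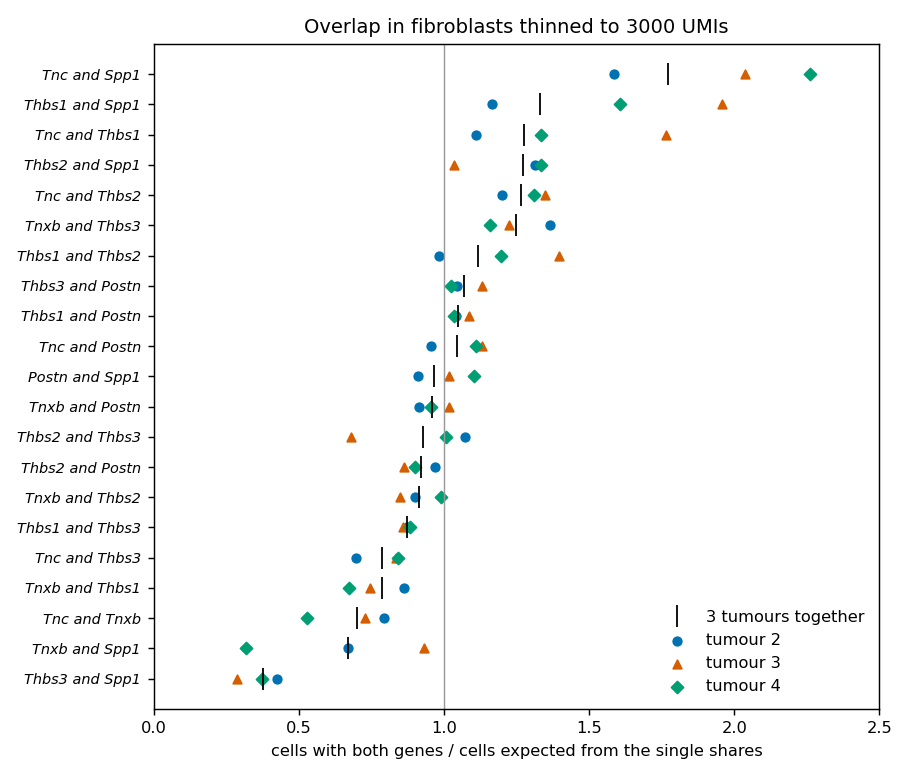
Number of fibroblast-gated cells holding both genes of a pair, divided by the number expected from their single shares (horizontal axis), for the 21 pairs without Thbs4 (vertical axis), in cells thinned to 3000 UMIs; points are tumours 2 to 4, ticks the 3 together and the grey line a ratio of 1. The ratio is highest for Tnc and Spp1, at 1.77, and lowest for Thbs3 and Spp1, at 0.378. The shares of cells with Spp1, Tnc and Thbs2 could not be shown to lie above those of red-cell-gated wells.

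Overlap within cells is given next. Ratios with Spp1, Tnc or Thbs2 are printed as values only. The shares of thinned fibroblasts with Spp1 (9.26%), Tnc (37.7%) and Thbs2 (49.0%) could not be shown to lie above those of the red-cell-gated wells. There the share was 25.0% for each (2 of 8 wells). In 465 fibroblasts thinned to 3000 UMIs, Tnc and Spp1 were found together in 33 cells where the single shares give 18.6, a ratio of 1.77 (1.59 to 2.26 over tumours 2 to 4). The ratio was 1.28 (1.11 to 1.77) for Tnc and Thbs1, 1.26 (1.20 to 1.35) for Tnc and Thbs2, and 1.25 (1.16 to 1.37) for Tnxb and Thbs3. Tnc and Tnxb were found together in 53 cells against 75.6, a ratio of 0.701 (0.527 to 0.793), and Thbs3 and Spp1 in 5 cells against 13.2, a ratio of 0.378 (0.286 to 0.426). Each of these 6 ratios lay on the same side of 1 in all 3 tumours, but this does not set the 6 pairs apart. Other pairs did the same, such as Tnxb and Thbs1, at 0.786 (0.674 to 0.863), and Tnc and Thbs3, at 0.787 (0.698 to 0.843). Thbs1 and Thbs2, at 1.12 (0.984 to 1.40), did not. Without thinning the ratios were 1.40 for Tnc and Spp1, 0.907 for Tnc and Tnxb and 1.07 for Thbs3 and Spp1, so the last ratio lay below 1 only at equal depth. Pairs with Postn stayed between 0.810 and 1.07. The median fibroblast held 2.5, 5, 3 and 4 of the genes in tumours 1 to 4 as counted, and 2, 3, 2 and 3 of them after thinning.

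The genes most like each of them from cell to cell were sought by the mean of the within-tumour Pearson correlations of log2 levels over those 560 cells, and of the 3 genes with the highest mean those with at least 0.30 in each of the 3 tumours were kept. The values describe cells that share libraries and differ in depth. Tnc was followed by Col12a1 (r = 0.48), Actn1 (0.47, a contractile marker used above) and 4930538K18Rik (0.46). Tnxb was followed by Gsn (0.53), Cd34 (0.49) and Clec3b (0.43). Thbs2 was followed by Fibin (0.49), Tnc (0.44) and Jam2 (0.41), and Thbs3 by the collagen gene Col14a1 (0.41) and Ssc5d (0.36). Postn was followed by the fibronectin gene Fn1 (0.54), Adamdec1 (0.44, a lamina propria marker used above) and Gja1 (0.42), and Spp1 by Rnf149 (0.33). For Thbs1 and Thbs4 none of the first 3 genes reached 0.30 in each tumour. Some genes at place 4 or 5 reached 0.30 in each tumour but lay outside the first 3. Among them were Rnf149 for Thbs1 (0.33) and Fbn1 for Thbs3 (0.36), and others for Tnc, Tnxb and Postn.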

How the data were processed

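The deposited values are expected counts, which equal whole UMIs corrected for saturation among 4096 possible tags to within 0.00498. The submitters' processing notes name BWA and mm10; the sources used here give no versions, counting program or use of strand. Spike-ins were left out of totals. Whole wells were gated by markers: a lineage needed 50% of its measured markers, and fibroblasts 2 of 6 and no other lineage. No well was removed as a doublet, and empty or shared wells were not called. Deposited expected counts were summed per tumour and cell group (at least 5 wells, 25932 counts or more), rounded, and fitted (Thbs4, with no row in tumour 1, as 0 there) with edgeR 4.0.16 in R 4.3.3 (quasi-likelihood, TMM, filterByExpr, the tumour as a block since both sums come from the same tumour, markers that set the groups left out, Benjamini-Hochberg over all genes, calls at 0.05). The 3 lineage contrasts shared 1 fit of 14 sums. The SE was the log2 fold change over the root of F. Thinning drew 3000 UMIs per cell. DESeq2 1.42.0, other filters, gates and omitted tumours were alternatives; the thinned marker score, the replaced highest well and the omitted red-cell-rich wells were chosen after seeing the data. Named genes are the 8 genes, the up to 4 called genes of each list with the largest change and the up to 3 most correlated genes; cells or genes pointed to because of 1 well were noticed after their values were seen. The genes and lists were chosen with earlier results of these data known. Labels do not say whether tumours came from separate mice, so p-values measure the spread between these tumours. Exceptions are the fit at 3 cycling markers and the fits without the filter on low counts. Their p-values rest almost wholly on a spread estimated over all genes together. Tumour 1 alone came from another sequencing run, so run and tumour cannot be told apart.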

Additional observations from a re-analysis of the deposited data

Results flagged for a closer look

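In groups of 4 tumours, 1 value was marked when its gap to the nearest other divided by the whole range exceeded Dixon's 95% critical value, and 4 of 98 groups were marked, where chance marks about 1 in 20. Thbs4, measured in 3 tumours, was left out. Tnxb of contractile-high cells was 2.62 transcripts per 10000 in tumour 1, against 0.849 to 1.04. Spp1 of contractile-low cells was 0.549 in tumour 2, against 0 to 0.0485, with 54.1% in 1 well. Spp1 of inflammatory-high cells was 5.13 in tumour 3, against 0 to 0.276, with 93.4% in 1 well. Spp1 of telocyte-marker cells was 9.86 in tumour 3, against 0 to 0.198, with 99.4% in 1 well.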

How the results depend on the processing

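The calls within fibroblasts held for most alternatives, and those of other cell types did not. Of 257 alternative values for the called results, 227 stayed called in the same direction, 30 lost the call and 0 changed sign. In Cajal-gated cells Tnxb lost the call in 8 and Spp1 in 7 of 15 alternatives. Spp1 in smooth-muscle-gated cells lost it in 9 of 15. For the 3 fibroblast rankings a called gene lost the call in at most 2 alternatives. Alternatives in which a gene could not be tested were not counted. Of 531 values for the results not called, 37 became called and 45 changed sign. The counts of genes called were 577 (contractile), 857 (progenitor), 136 (inflammatory), 182 (Cajal), 163 (pericyte) and 152 (smooth muscle). Without the filter on low counts they were 999, 1309, 430, 458, 494 and 423. Without the replicate block, which ignores that both sums come from the same tumour, they were 258 (contractile), 456 (progenitor), 0 (inflammatory, 510 at an unadjusted p under 0.05) and 101 (Cajal), and 3 of the 8 genes were called for the contractile list, 4 for the progenitor list and 0 for the inflammatory list, Cajal and smooth muscle. The calls lost without the block were Tnc (edgeR adjusted p = 0.101) and Thbs1 (0.341) for the contractile list, Thbs1 (0.116) and Thbs2 (0.249) for the progenitor list, and Thbs4 (0.206) for the inflammatory list, with Tnxb (0.0548) and Spp1 (0.214) in Cajal-gated and Spp1 (0.323) in smooth-muscle-gated cells. Leaving out 1 tumour gave 243 to 812 genes (contractile), 468 to 1099 (progenitor), 14 to 316 (inflammatory), 4 to 152 (Cajal), 52 to 169 (pericyte) and 48 to 125 (smooth muscle), and 4 to 6, 6 to 7, 0 to 2, 0 to 1, 0 to 2 and 0 to 1 of the 8 genes. The inflammatory count was 76 for upper against lower 50% of cells and 305 with at most 15% mitochondrial transcripts; 2 of the 8 genes were called there without the filter, without cycling cells and with at most 15% mitochondrial, and 0 with the highest well replaced. For Cajal-gated cells DESeq2 called 274 genes and a minimum of 2000 transcripts 75, with 0 of the 8 genes at that minimum and 1 each with library size scaling and a 40% gate. For pericyte-gated cells 1 gene was called by DESeq2 and at 2000 transcripts, 2 without the filter and with a 60% gate, and 3 with the highest well replaced. For smooth-muscle-gated cells 0 were called by DESeq2, at 2000 transcripts, at 15% mitochondrial and with a 40% gate, 3 without the filter and with a 60% gate (336 genes in all), and 2 with the highest well replaced. Scaling by library size moved the share of calls that were higher to 57.4%, against 44.7%, for the contractile list (median of all genes 0.14, against 0.00) and to 70.2%, against 42.9%, for Cajal (0.19, against -0.11).

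Signs changed for these log2 fold changes, none of them called in the tests as first reported; the cause was not tested. Leaving out 1 tumour moved Thbs4 between -1.05 and 0.50 (contractile) and between -0.36 and 2.85 (progenitor), with the opposite sign without tumour 4, and it was 0.0303 and -0.66 for upper against lower 50%, and 0.98 and -0.60 with thinned scores. For the inflammatory list Thbs1 was 0.0557 without the filter, between -0.18 and 0.11 without 1 tumour, 0.0759 for upper against lower 50%, 0.11 with thinned scores, 0.0147 at 500 transcripts, 0.0371 at 15% mitochondrial and 0.0511 with the highest well replaced; Postn was between -0.29 and 0.15 without 1 tumour, 0.0205 for upper against lower 50% and 0.11 with the highest well replaced; Spp1 was 0.46 for upper against lower 50%. In Cajal-gated cells Thbs1 was 0.12 with library size scaling, 0.0343 without the block, between -0.82 and 0.51 without 1 tumour, 0.49 at 2000 transcripts and 0.0221 at 15% mitochondrial, Thbs2 was 0.15 without the block, and Thbs4 was -0.12 without the filter and between -1.59 and 0.55 without 1 tumour. In pericyte-gated cells the ranges without 1 tumour were -0.19 to 0.29 for Tnc, -0.06495 to 0.35 for Thbs1 and -0.995 to 1.59 for Thbs2, and the values with a 60% gate and with the highest well replaced were -1.50 and -0.33 for Tnc, -0.0752 and -0.42 for Thbs1, and -1.06 and -1.39 for Thbs2. Spp1 there was between -0.58 and 0.998 without 1 tumour (-0.40 without tumour 3), -4.28 with a 60% gate and -3.11 with the highest well replaced (both called, edgeR adjusted p = 0.00748 and 0.0247), and Postn was -0.0226 without the filter, between -0.24 and 0.17 without 1 tumour and -0.33 with the highest well replaced. In smooth-muscle-gated cells Tnc was 0.42 without the block and between -0.80 and 0.13 without 1 tumour. The planned cycling comparison had 1 tumour with enough cells at 4 markers and gave a test only at 3 markers, with 460 genes and 4 of the 8 called. Most Spp1 and Thbs4 transcripts lay in few wells.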
